A study of Mus musculus with 6 samples.

Results

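The 10 imprinted growth genes described here were the rows of the deposited gene table with the symbols Igf2, H19, Dlk1, Meg3, Rian, Mirg, Peg3, Plagl1, Cdkn1c and Grb10, taken by symbol from 45777 listed genes. Imprinted genes are transcribed from the maternal or the paternal chromosome, according to methylation that was set down in the egg or the sperm. Many act on growth of the fetus and the placenta, where paternally expressed genes tend to promote growth and maternally expressed genes to restrain it, and most fall to a low level in adult tissue. Igf2, Dlk1, Peg3 and Plagl1 are known as paternally expressed genes, and H19, Meg3, Rian, Mirg and Cdkn1c as maternally expressed genes. Grb10 is transcribed from the maternal copy in most tissues and from the paternal copy in neurons. The reads were counted per gene and not per parental copy, so the values are total levels and carry no information on which copy was transcribed.

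B16F10 is a melanoma cell line of C57BL/6 mice, and RNA was sequenced from 3 grafts grown in the hind footpad, a site that bears weight, and 3 grown in the flank skin. The labels give Foxn1-/- hosts, which lack mature T cells, at 8 weeks of age for all 6 tumors. The text of the study does not name the host of the sequenced tumors, and it describes B16F10 grafts in C57BL/6J as well as in Foxn1-null mice. It gives 6 weeks as the age of its mice when cells were injected, so both ages may hold. Each library was a stranded total RNA library of 1 tumor. The study describes grafts placed at both sites of a mouse at once, so a footpad and a flank skin tumor may share a host, but no label ties a tumor or a replicate number to a mouse. The p-values therefore measure the spread between these tumors. The tumors had 46529649 to 66364366 reads on genes, and values are given as reads, as CPM (reads relative to the TMM-scaled library size, which edgeR computes) or, where genes are compared with each other, as FPKM (scaled also for transcript length). Values listed by tumor follow replicates 1, 2 and 3 of the site, and an error of a log2 fold change is its standard error (SE). A level of 3 reads, taken as the limit of detection, was 0.0438 to 0.0673 CPM. Markers of the melanocyte lineage summed to between 13811 and 29444 CPM, with Mitf and Tyr present in each tumor, and edgeR and DESeq2 each called 0 of these 9 genes between the sites, with 1 at an unadjusted p under 0.05 in edgeR. The labels describe RNA taken from removed tumors, whereas the study's methods speak of isolated tumor cells without giving a way of isolation. Markers of other cells were present in the libraries, as given further on, so the values are treated as those of bulk samples, in which fewer cells of a type and less RNA per cell cannot be told apart.

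Plagl1, a zinc finger transcription factor that can stop the cell cycle, was by far the most abundant of the 10 genes. It reached 28.1 ± 1.39 FPKM in footpad tumors and 17.0 ± 3.59 FPKM in flank skin tumors (SD, n = 3), which was 76.8% and 85.2% of the FPKM summed over the 10 genes. Grb10, an adaptor protein that restrains the insulin and IGF1 receptors, followed with 4.45 ± 0.511 FPKM in the footpad and 1.56 ± 0.364 FPKM in the flank skin. In the footpad H19 (1.89 ± 0.846 FPKM) and Rian (1.09 ± 0.478 FPKM) came next and overlapped each other, while Grb10 lay above both in every tumor. Meg3, Peg3, Cdkn1c, Igf2, Mirg and Dlk1 had mean levels from 0.0273 to 0.359 FPKM in the footpad, and each overlapped the next one in that order. The order in the flank skin was Plagl1, Grb10, H19, Rian, Peg3, Cdkn1c, Meg3, Mirg, Igf2 and Dlk1, and separate neighbors were found only between Plagl1 and Grb10 and between Peg3 and Cdkn1c. Among the 17210 genes tested, 82.9% had a lower mean FPKM than Plagl1 and 43.2% a lower one than Grb10, whereas 0.395% had a lower one than Dlk1. FPKM values of Meg3 need care, since its reads per FPKM implied a transcript of 3.80 kb in footpad replicate 1 and of 14.0 kb in flank replicate 3, a ratio of 3.69, while this ratio stayed at or under 1.68 for the other 9 genes.

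No gene of the 10 was at or under 3 reads in all 3 tumors of a site, and 8 of the 10 were above 3 reads in every tumor. Of all 45777 listed genes, 56% were at or under that limit throughout a site. Dlk1 had 3 reads in flank replicate 3. Mirg had 0 reads in footpad replicate 1 and in flank replicate 2, which allows up to 0.0673 and 0.0513 CPM, and 2 reads in flank replicate 1. Igf2 had 4 reads in footpad replicate 3 and in flank replicates 1 and 2, just above the limit. Igf2, Dlk1 and Mirg did not pass edgeR's filter on low counts, so that 7 of the 10 genes were tested between the sites.

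**Figure D1:**
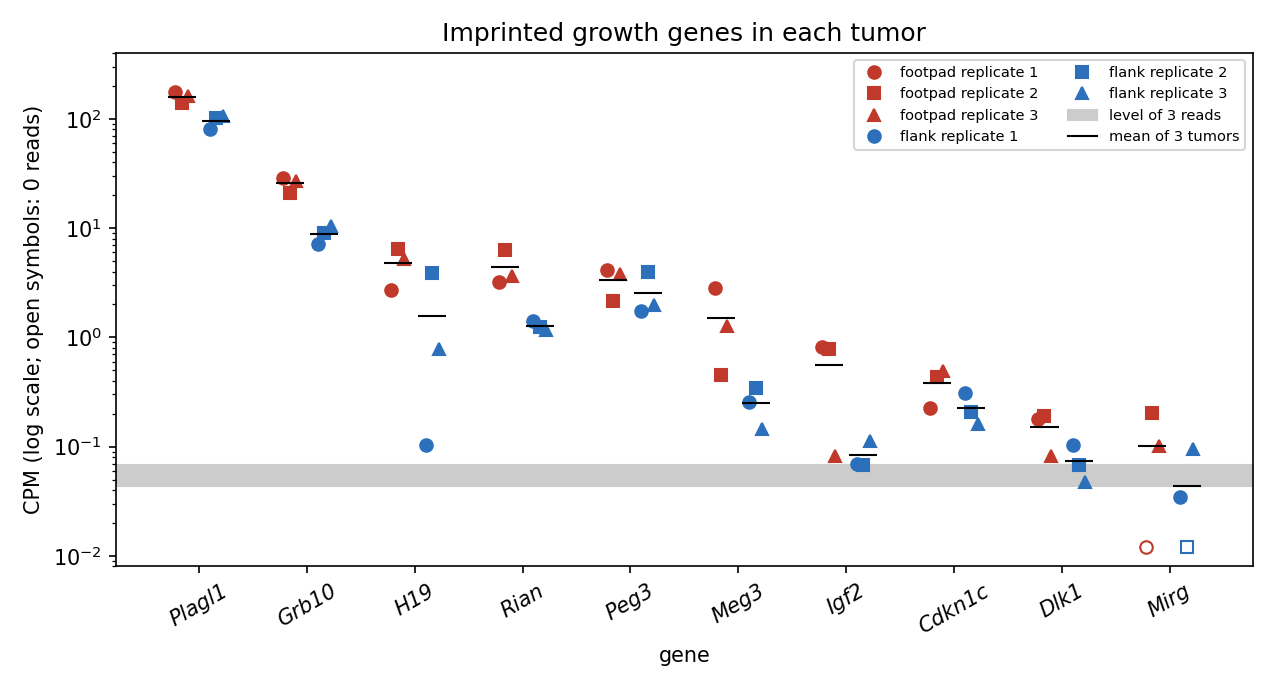
CPM of the 10 imprinted growth genes in each tumor, on a log axis, in order of mean CPM, with a bar at the mean of the 3 tumors of a site. The grey band marks the level of 3 reads, open symbols mark 0 reads, and Plagl1, Grb10, Rian and Meg3 show no overlap between the footpad and the flank skin.

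Levels were compared between the sites with edgeR's quasi-likelihood test over all 17210 genes that passed the filter, with Benjamini-Hochberg adjustment, and calling a gene took an adjusted p below 0.05 together with at least a 2-fold difference. Grb10 and Rian were called higher in footpad tumors, 2 of the 7 genes tested, and 0 were called lower. Of all genes tested, 2.89% were called higher and 0.872% lower. By the adjusted p alone 3 of the 7 passed, all higher in the footpad, against 3.43% of all genes. The third was Plagl1 at 1.66-fold, whereas Meg3 was 6.02-fold higher with an adjusted p above 0.05. DESeq2 called Grb10, Rian and Meg3, where it called 6.71% of all genes higher. Every footpad tumor lay above every flank skin tumor in 4 of the 7 genes, Grb10, Rian, Plagl1 and Meg3, and in 17.5% of all genes tested. The median log2 fold change was 1.53 over the 7 genes and -0.00425 over all genes tested, and it lay above 0 in 7 of the 7 genes and in 49.7% of all genes. In an edgeR fit without the filter it lay above 0 in each of the 10 genes. Calls changed when 1 tumor was left out, here and over all genes. Such fits also compare fewer tumors, and whether the tumor left out or the smaller number lost a call was not tested. Without footpad replicate 1, footpad replicate 3 or flank replicate 3, edgeR tested 7, 9 and 8 of the 10 genes and called 0. Of those tested, 4, 5 and 5 had an unadjusted p under 0.05. Among all genes tested in these fits, 3138 of 17889, 3289 of 17969 and 3398 of 17876 had one. Over all genes these fits called 31, 0 and 46, against 647 with all tumors. Without footpad replicate 2, Grb10 and Meg3 were called, and without flank replicate 1 or flank replicate 2 only Grb10 was. With the replicate number as a block, edgeR called 0 of the 17210 genes, with 3551 at an unadjusted p under 0.05, and the adjusted p was 0.0743 for Grb10, 0.133 for Plagl1 and 0.113 for Rian.

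**Figure D2:**
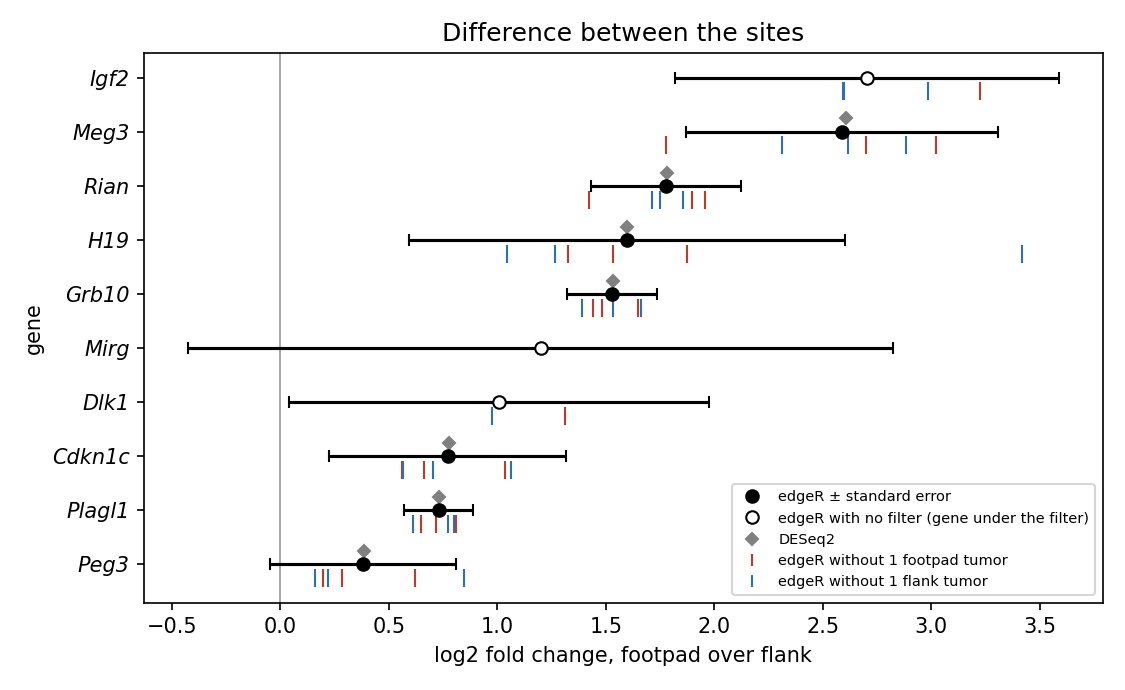
Log2 fold change of each gene, footpad over flank skin, from edgeR (circles with a bar of 1 standard error), from DESeq2 (diamonds) and from edgeR fits that each left out 1 tumor (ticks, drawn only where the gene passed the filter of that fit). Open circles are the 3 genes under the filter, and Grb10 and Plagl1 have the shortest bars, with standard errors of 0.21 and 0.16.

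Grb10 lies on chromosome 11 (chr11:11930499-12037428, minus strand, GRCm38) and codes for a protein that binds activated receptor tyrosine kinases. It had 1276, 1446 and 1334 reads in the footpad, against 414, 525 and 658 reads in the flank skin. As CPM these were 28.6, 21.1 and 27.2 in the footpad and 7.14, 8.98 and 10.5 in the flank skin, so the lowest footpad tumor lay 2.01-fold above the highest flank skin tumor. The mean was 25.7 ± 4.02 CPM against 8.88 ± 1.69 CPM (SD, n = 3), a log2 fold change of 1.53 ± 0.21 (SE, edgeR adjusted p = 0.0154, DESeq2 4.28e-09). In the fits that left out 1 tumor the log2 fold change stayed between 1.39 and 1.66. The adjusted p from edgeR was 0.0194, 0.0320 and 0.0386 without footpad replicate 2, flank replicate 1 and flank replicate 2. It was 0.0715, 0.0889 and 0.0625 without footpad replicate 1, footpad replicate 3 and flank replicate 3, where the call was lost. A non-coding RNA listed within the gene, LOC102631979, had 49, 29 and 34 reads in the footpad and 7, 13 and 8 in the flank skin (log2 fold change 2.21, edgeR adjusted p = 0.0637), and it was named after its values were seen.

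Plagl1 lies on chromosome 10 (chr10:13090832-13131694, plus strand, GRCm38). It had 7832, 9648 and 7891 reads in the footpad, and 4648, 5968 and 6613 reads in the flank skin. The levels were 176, 141 and 161 CPM in the footpad and 80.2, 102 and 106 CPM in the flank skin, and the sites did not overlap. The log2 fold change was 0.73 ± 0.16 (SE, edgeR adjusted p = 0.0467, DESeq2 0.000866), under the 2-fold limit. In the fits without 1 tumor the log2 fold change ranged from 0.61 to 0.81, and the adjusted p from edgeR was under 0.05 only without footpad replicate 2 (0.0467). It was 0.151 and 0.154 without footpad replicates 1 and 3, and 0.0740, 0.0909 and 0.123 without flank replicates 1, 2 and 3. Hymai, a non-coding RNA listed within the same locus, had 180, 153 and 144 reads in the footpad and 190, 265 and 217 in the flank skin (log2 fold change -0.29, edgeR adjusted p = 0.591). It was named after its values were seen, and whether the counting used strand is not given in the sources used here.

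Methylation at CpG sites is the mark by which imprinted genes are set. The sequence at the start sites of the genes that did not overlap between the sites is shown here. These start sites are not taken to be the regions that carry the imprint mark, and methylation was not measured. The sequences are those of RefSeq on GRCm38.p6, 300 bases that end shortly after the start of transcription, in the direction of the gene, with each CpG in capitals. They cover chr11:12037371-12037670 (minus strand) for the first of 2 listed starts of Grb10, chr10:13090582-13090881 (plus strand) for Plagl1, chr12:109540746-109541045 (plus strand) for the first of 2 starts of Meg3, and chr12:109603695-109603994 (plus strand) for Rian.
Grb10: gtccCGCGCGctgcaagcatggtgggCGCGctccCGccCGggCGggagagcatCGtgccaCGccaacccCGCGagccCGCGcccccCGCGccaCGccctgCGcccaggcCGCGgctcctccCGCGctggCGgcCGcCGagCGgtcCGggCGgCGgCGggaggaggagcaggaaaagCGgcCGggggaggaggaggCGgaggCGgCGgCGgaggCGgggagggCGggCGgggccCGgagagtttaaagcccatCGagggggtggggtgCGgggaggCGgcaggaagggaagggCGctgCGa
Plagl1: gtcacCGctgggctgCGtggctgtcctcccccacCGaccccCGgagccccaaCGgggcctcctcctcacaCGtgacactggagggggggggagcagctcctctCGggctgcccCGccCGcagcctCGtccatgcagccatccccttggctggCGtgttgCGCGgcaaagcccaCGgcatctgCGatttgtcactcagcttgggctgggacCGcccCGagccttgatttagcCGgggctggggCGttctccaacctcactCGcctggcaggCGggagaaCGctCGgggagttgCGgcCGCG
Meg3: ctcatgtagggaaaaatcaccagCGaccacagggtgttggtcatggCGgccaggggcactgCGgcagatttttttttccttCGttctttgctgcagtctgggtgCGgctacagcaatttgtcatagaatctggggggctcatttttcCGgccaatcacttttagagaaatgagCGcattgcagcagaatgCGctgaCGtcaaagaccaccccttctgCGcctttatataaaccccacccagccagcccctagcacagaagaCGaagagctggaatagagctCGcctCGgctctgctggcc
Rian: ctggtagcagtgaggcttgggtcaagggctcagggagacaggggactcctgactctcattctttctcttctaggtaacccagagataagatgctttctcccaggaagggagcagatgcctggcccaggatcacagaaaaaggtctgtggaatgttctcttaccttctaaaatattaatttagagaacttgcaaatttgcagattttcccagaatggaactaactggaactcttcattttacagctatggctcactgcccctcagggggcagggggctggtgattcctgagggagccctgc
The first Grb10 start held 45 CpGs in a sequence that was 80% G and C, and 98.1% of the 32851 promoters in the table held fewer. Plagl1 held 26 CpGs, the first start of Meg3 held 13 and Rian held 0, where the median of all promoters was 7. The second starts held fewer, with 9 CpGs for Grb10 (54.2% of promoters held fewer) and 1 for Meg3 (5.43%), and gene counts do not show which start was used. Among the 13 starts listed for 8 of the 10 genes, the first start of Grb10 held the most CpGs and that of Rian the fewest. On either strand, TATAAA was found in the Meg3 sequence and in 13.6% of all promoters. GGAATG, the letters bound by the TEAD partners of YAP, was found at the start of Rian and of Peg3 and at 3 of 4 starts of Igf2, against 14.7% of all promoters. GGGGCCCC, letters that the Plagl1 protein is known to bind, was found at the start of Peg3 and in 1.08% of all promoters. None of the 3 motifs contains another, and a match describes the letters only.

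The Dlk1-Dio3 domain on chromosome 12 holds 4 of the 10 genes. Dlk1 codes for a membrane protein related to Notch ligands, and Meg3, Rian and Mirg are non-coding RNAs that are read in the same direction and carry snoRNAs and microRNAs. Rian (chr12:109603945-109661716, plus strand, GRCm38) had 143, 429 and 177 reads in the footpad, and 82, 72 and 73 reads in the flank skin. In CPM the footpad tumors were at 3.21, 6.26 and 3.61 and the flank skin tumors at 1.41, 1.23 and 1.17. The flank skin tumors lay close together, and the lowest footpad tumor lay 2.27-fold above the highest of them. The log2 fold change was 1.78 ± 0.35 (SE, edgeR adjusted p = 0.0363, DESeq2 9.53e-05). It ranged from 1.42 without footpad replicate 2 to 1.95 without footpad replicate 1. The adjusted p from edgeR without footpad replicates 1, 2 and 3 was 0.0845, 0.0519 and 0.120, and without flank replicates 1, 2 and 3 it was 0.0664, 0.0795 and 0.128, so that the call was lost in each of the 6 fits. Within Rian, 11 snoRNA rows held 21 reads over the 6 tumors, and AF357359 alone had more than 3 reads in a tumor, with 4 in footpad replicate 2.

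Meg3 (chr12:109540996-109571729, plus strand, GRCm38), the maternal non-coding RNA nearest to Dlk1, had 125, 31 and 62 reads in the footpad and 15, 20 and 9 reads in the flank skin. The footpad tumors were at 2.81, 0.452 and 1.27 CPM and the flank skin tumors at 0.259, 0.342 and 0.144 CPM. The sites did not overlap, although footpad replicate 2 was only 1.32-fold above flank replicate 2. The log2 fold change of 2.59 had a standard error of 0.72, with an adjusted p of 0.0783 from edgeR and 0.00974 from DESeq2, and over the alternatives the adjusted p lay between 0.00974 and 0.238. Without footpad replicate 2 the log2 fold change was 3.02 and the adjusted p from edgeR 0.0375. Meg3 and Rian did not have their highest level in the same tumor: footpad replicate 1 was highest for Meg3 and lowest of the footpad for Rian, and footpad replicate 2 was the reverse. The log2 ratio of Rian to Meg3 in FPKM was 0.05, 4.38 and 1.58 in the footpad and 3.07, 1.96 and 3.88 in the flank skin, with overlapping ranges (exact permutation test, p = 0.6). In reads with 0.5 added, this ratio was 0.19, 3.77 and 1.51 in the footpad and 2.41, 1.82 and 2.95 in the flank skin.

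Mirg (chr12:109734981-109749458, plus strand, GRCm38) had 0, 14 and 5 reads in the footpad and 2, 0 and 6 in the flank skin. The pooled reads gave a footpad to flank ratio of 2.62, with an exact 95% counting interval from 1.10 to 6.93, which leaves out the spread between tumors. With that spread, in edgeR without the filter, the log2 fold change was 1.20 with a standard error of 1.63 (adjusted p = 0.698). Dlk1 (chr12:109452485-109463336, plus strand, GRCm38) had 8, 13 and 4 reads in the footpad and 6, 4 and 3 in the flank skin. Its pooled ratio was 2.12 (1.05 to 4.52), and the log2 fold change without the filter was 1.01 with a standard error of 0.97 (adjusted p = 0.580 from edgeR). For Mirg and Dlk1 the difference between the sites was not detectable beyond the spread between tumors at this depth.

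At the far end of the domain the reads of the footpad and the flank skin lay apart. Dio3 (chr12:110279230-110281097, GRCm38), a deiodinase that inactivates thyroid hormone and is preferentially transcribed from the paternal copy, had 31, 51 and 36 reads in the footpad and 0, 4 and 0 reads in the flank skin. Its footpad level was even, at 0.725 ± 0.0255 CPM (SD, n = 3), and the pooled reads gave a ratio of 32.6 with an exact 95% counting interval from 12.4 to 122. EdgeR called Dio3 with an adjusted p of 0.0412, and DESeq2 with 0.000718. Dio3 passed the filter on low counts through its footpad reads. Without the filter the adjusted p from edgeR was 0.0524, and the call was lost. The edgeR call was kept without flank replicate 2 (0.0287) and lost in the other 5 fits without 1 tumor, with adjusted p values from 0.0600 without footpad replicate 2 to 0.143 without footpad replicate 3. With the replicate block the adjusted p from edgeR was 0.117. Dio3os, the non-coding RNA read against it, had 13, 13 and 4 reads in the footpad and 0 reads in the flank skin. Its mean footpad CPM was 3.73-fold above the mean flank skin floor of 3 reads per library. The lowest footpad tumor was 1.58-fold above the highest such floor. In edgeR without the filter, the log2 fold change of Dio3os was 6.42 with a standard error of 1.63 (adjusted p = 0.0930). Rtl1, a retrotransposon-derived paternal gene on the minus strand that RefSeq draws across the ends of Meg3 and Rian, had 4, 0 and 8 reads in the footpad and 20, 7 and 0 in the flank skin. The table lists 103 genes from Dlk1 to Dio3 over 829 kb, of which 34 had a read and 11 had more than 3 reads in a tumor. The others of the 11 were the pseudogene Gm3379, with 693 to 863 reads in the footpad and 677 to 1086 in the flank skin (log2 fold change -0.10, edgeR adjusted p = 0.801), and the non-coding Gm34785 and Gm40575, with 15 and 7 reads in footpad replicate 1 and 0 elsewhere. The 61 microRNA rows of the domain held 28 reads over the 6 tumors, in total RNA libraries that were not made for small RNA.

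**Figure D3:**
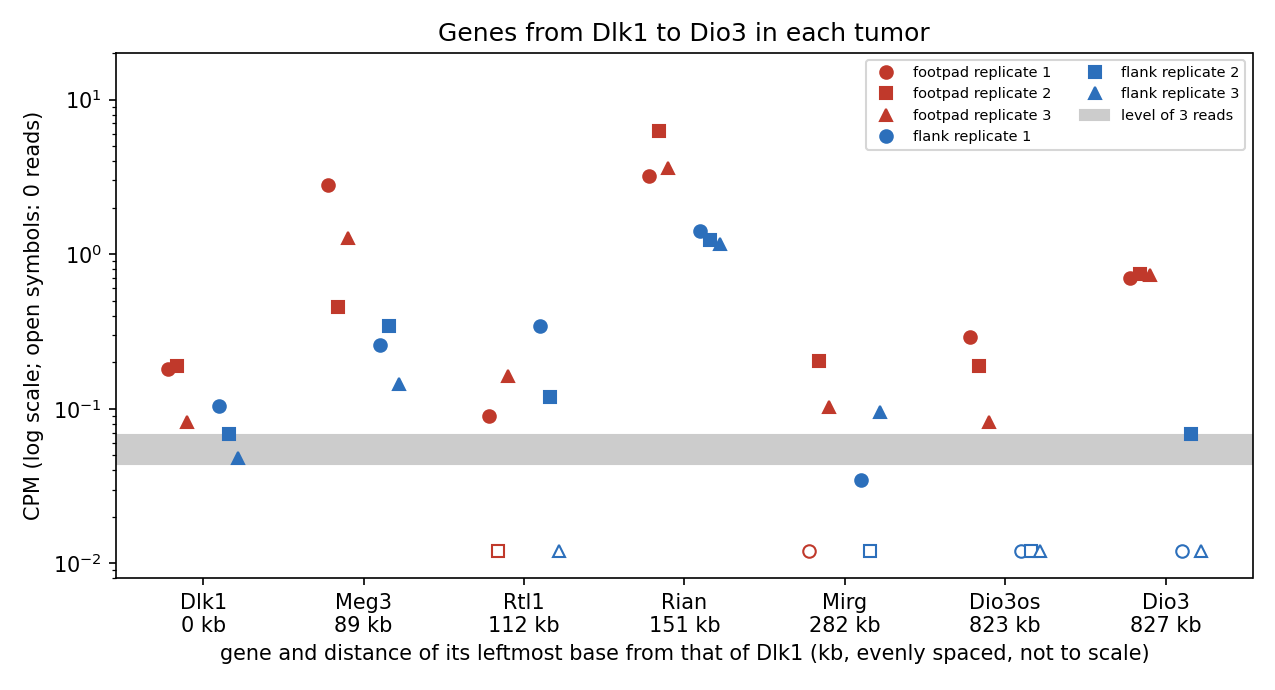
CPM of 7 genes of the Dlk1-Dio3 domain in each tumor, on a log axis, in their order along chromosome 12, with the distance from Dlk1 under each name. The grey band marks 3 reads and open symbols 0 reads, and Rian, Meg3, Dio3os and Dio3 show no overlap between the sites.

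The Igf2-H19 domain lies on chromosome 7. H19 (chr7:142575530-142578146, minus strand, GRCm38), a maternal non-coding RNA that shares its enhancers with Igf2, varied over a wide range within a site. It had 122, 442 and 255 reads in the footpad and 6, 226 and 49 reads in the flank skin, or 2.74, 6.45 and 5.21 CPM against 0.103, 3.87 and 0.783 CPM. Flank replicate 2 lay above footpad replicate 1, and the flank skin tumors themselves spanned a range wider than the difference between the site means of 4.80 ± 1.89 and 1.58 ± 2.01 CPM (SD, n = 3). The log2 fold change was 1.60 ± 1.01 (SE, edgeR adjusted p = 0.3598, DESeq2 0.227). Flank replicate 2 decided its size: without it the log2 fold change was 3.42 with an adjusted p of 0.0907 from edgeR, and over all alternatives the adjusted p lay between 0.0907 and 0.596.

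H19 holds the hairpin of miR-675, whose row had 3, 3 and 3 reads in the footpad and 0, 3 and 2 reads in the flank skin. In no tumor did this row pass the limit of 3 reads. The mature sequences are shown because this row held the most reads, 14 over the 6 tumors, of the microRNA rows within the 10 genes. They are those of RefSeq on the minus strand of GRCm38.p6, at chr7:142577112-142577133 and chr7:142577078-142577099, with the seed in capitals.
miR-675-5p: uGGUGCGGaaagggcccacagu
miR-675-3p: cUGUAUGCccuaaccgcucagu
The seeds of the 2 arms differ, and since the hairpin lies within an exon of H19, reads of both cannot be told apart here.

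Igf2 (chr7:142650768-142666816, minus strand, GRCm38), the fetal growth factor of the domain, had 36, 54 and 4 reads in the footpad and 4, 4 and 7 reads in the flank skin. The footpad tumors fell apart, with 0.808 and 0.788 CPM in replicates 1 and 2 and 0.0817 CPM in replicate 3, and the last value lay within the flank skin range of 0.0684 to 0.112 CPM. The pooled ratio was 6.92 with an exact 95% counting interval from 3.99 to 12.9, and in edgeR without the filter the log2 fold change was 2.70 ± 0.89 (SE, edgeR adjusted p = 0.152). Footpad replicate 2 had the most reads of both H19 and Igf2, whereas footpad replicate 3 had 255 reads of H19 and 4 of Igf2. The log2 ratio of H19 to Igf2 in FPKM, with 0.01 added to each, was 2.65, 3.81 and 6.41 in the footpad and 1.08, 6.09 and 3.36 in the flank skin (exact permutation test, p = 0.7). Igf2r, the receptor that clears Igf2 from the cell surface, was at 207 ± 19.3 CPM in the footpad and 168 ± 63.5 CPM in the flank skin (SD, n = 3; log2 fold change 0.31, edgeR adjusted p = 0.533). Between Ins2 and H19 a single further gene had more than 3 reads in a tumor, the non-coding Gm33148, with 4 reads in footpad replicate 3 and 10 in flank replicate 1.

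Cdkn1c (chr7:143458339-143461059, minus strand, GRCm38) codes for p57, an inhibitor of cyclin-dependent kinases, and lies in the neighboring domain controlled by Kcnq1ot1. It had 10, 30 and 24 reads in the footpad and 18, 12 and 10 reads in the flank skin, or 0.224, 0.438 and 0.490 CPM against 0.310, 0.205 and 0.160 CPM. Footpad replicate 1 lay within the flank skin range, and the log2 fold change of 0.77 ± 0.54 (SE, edgeR adjusted p = 0.412, DESeq2 0.585) was smaller than 2 standard errors. Peg3 (chr7:6703892-6730462, minus strand, GRCm38), a paternally expressed zinc finger protein, had 185, 146 and 185 reads in the footpad and 100, 234 and 124 reads in the flank skin. The levels of 4.15, 2.13 and 3.78 CPM in the footpad and 1.72, 4.003 and 1.98 CPM in the flank skin overlapped widely. Its log2 fold change was 0.38 ± 0.43 (SE, edgeR adjusted p = 0.611), and it ranged from 0.16 without flank replicate 1 to 0.85 without flank replicate 2.

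Ratios within a locus set each gene against its neighbor or receptor in the same tumor. Of 6 ratios, 0 separated the sites. The differences of the mean log2 ratio, footpad minus flank skin, were 0.78 for H19 to Igf2, 1.94 for Meg3 to Dlk1, -0.97 for Rian to Meg3, -1.75 for Mirg to Meg3, 0.23 for Cdkn1c to Kcnq1ot1 and 1.49 for Igf2 to Igf2r. The two-sided exact permutation p lay between 0.2 and 0.9, and between 0.84 and 0.9 after adjustment over the 6. The smallest p that 3 tumors against 3 allow is 0.1. Since FPKM values of Meg3 need care, its ratios were also taken from reads with 0.5 added. The differences were then 1.34 for Meg3 to Dlk1, -0.57 for Rian to Meg3 and -1.35 for Mirg to Meg3 (exact permutation test, p = 0.4, 0.6 and 0.6).

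Markers of cells other than melanoma cells also differed between these tumors. Counts of markers at an unadjusted p under 0.05, here and below, stand beside 4349 of all 17210 genes tested in edgeR. Summed fibroblast markers (10 genes, 6 called higher) were at 144, 145 and 202 CPM in the footpad against 8.93, 39.9 and 11.2 CPM in the flank skin. Dcn and Lum, which define the list, reached 53.8 and 19.3 CPM in footpad replicate 3 and at most 8.02 and 2.67 CPM in the flank skin. Flank replicate 2 had the most H19 and Meg3 of the flank skin tumors, and the highest fibroblast markers among them. Its endothelial, macrophage, muscle progenitor, muscle fibre, adipocyte and neutrophil sums were also the highest of the flank skin. Its mural cell, keratinocyte, Schwann cell and melanocyte sums were not. In the footpad, H19 was highest in replicate 2, Meg3 in replicate 1 and fibroblast markers in replicate 3. Endothelial markers (9 genes, 3 called higher) were at 146 to 235 CPM in the footpad and 86.7 to 107 CPM in the flank skin, mural cell markers (9 genes, 2 called higher) at 162 to 237 against 80.3 to 138 CPM, and macrophage markers (8 genes, 1 called higher) at 232 to 265 against 33.6 to 173 CPM. Muscle progenitor markers (4 of 8 genes tested, 0 called by edgeR with 2 at an unadjusted p under 0.05, 1 called by DESeq2) were at 11.9 to 24.998 against 1.17 to 6.48 CPM, with Myf5 at 0 in all 6 tumors and Pax7 at 0 in 5. The ranges of the fibroblast, endothelial, mural cell, macrophage and muscle progenitor lists did not overlap between the sites, with the footpad higher. The adipocyte ranges did not overlap either, with the flank skin higher (17.5 to 26.1 CPM in the footpad against 28.3 to 45.0 CPM).

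Footpad replicate 2, the tumor with the most Rian, H19 and Mirg, stood apart in markers of skin and muscle. Keratinocyte markers (8 of 10 tested, 0 called by edgeR with 7 at an unadjusted p under 0.05, 2 called by DESeq2) were at 675 CPM there and at 4.83 to 32.4 CPM in the other 5 tumors, with Krt5 at 25.2 CPM and Krt14 at 49.1 CPM, and it was the highest tumor for 10 of 10 markers. Skeletal muscle fibre markers (8 of 10 tested, 0 called by edgeR or DESeq2 and 0 at an unadjusted p under 0.05) were at 541 CPM there and at 6.39 to 68.7 CPM elsewhere, with Acta1 at 140 CPM and Ckm at 45.9 CPM. Neutrophil markers (6 of 8 tested, 0 called by edgeR with 6 at an unadjusted p under 0.05, 1 called by DESeq2), of which S100a8 and S100a9 define the list, were at 341, 6.61 and 167 CPM in the footpad and at 4.22 to 28.8 CPM in the flank skin. Meg3 had the same order among the footpad tumors. Schwann cell markers (8 genes, 1 called higher) overlapped between the sites at 445 to 483 against 373 to 465 CPM, as did melanocyte markers. Adipocyte markers were at 17.5 to 26.1 against 28.3 to 45.0 CPM, with 3 of 7 tested, 0 called by edgeR or DESeq2 and 1 at an unadjusted p under 0.05. Without footpad replicate 2 Grb10 kept its call, with a log2 fold change of 1.65, and Rian had 1.42 with an adjusted p of 0.0519 from edgeR. The part of these cells in the levels of the 10 genes was not tested.

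**Figure D4:**
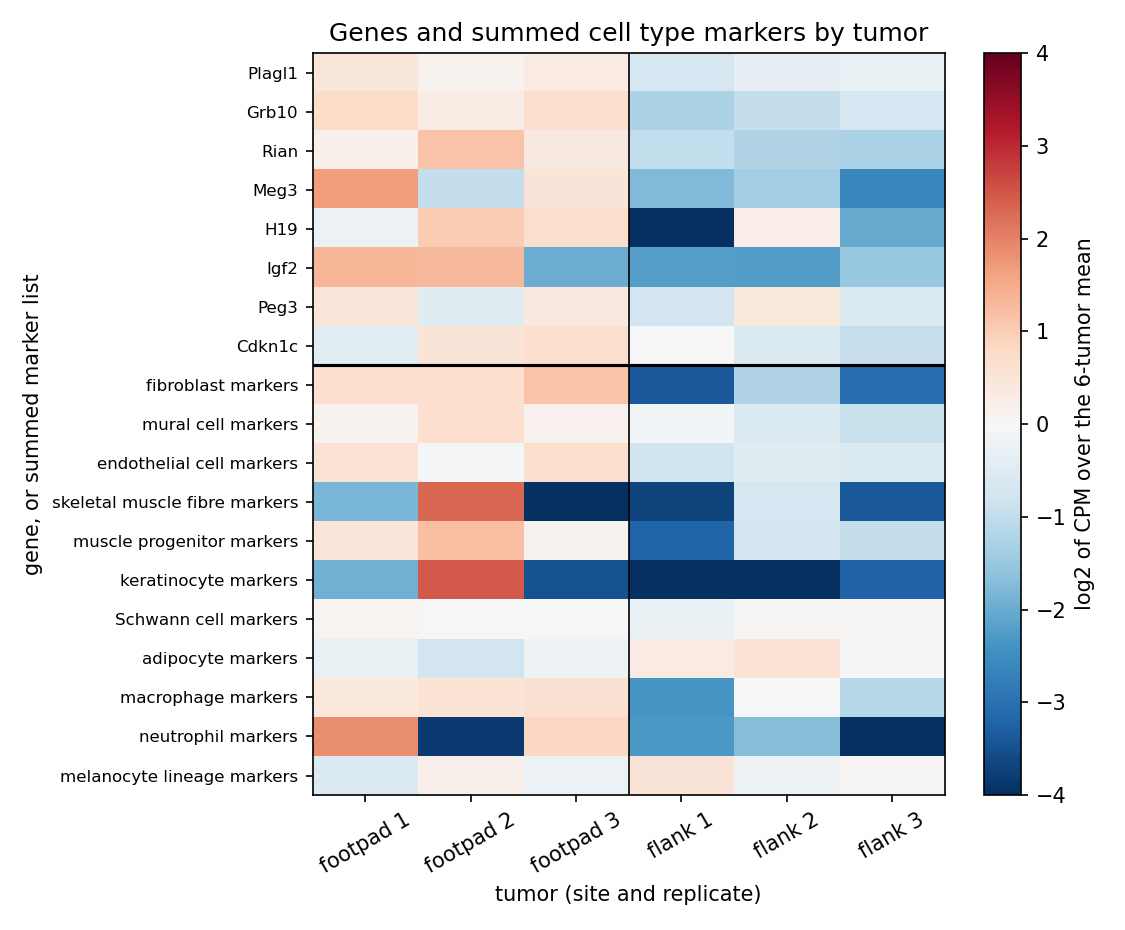
Log2 of the level of 8 of the 10 genes (above the line) and of summed cell type markers (below it) in each tumor, relative to the mean of the 6 tumors, with colors ending at -4 and 4. Dlk1 and Mirg are left out for their low reads. The fibroblast, endothelial, mural cell, macrophage and muscle progenitor sums are higher in all 3 footpad tumors, and the adipocyte sum is higher in all 3 flank skin tumors.

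Other imprinted genes were compared as a group of 53 symbols, of which 51 were in the table and 30 were tested. EdgeR called 3 higher and 0 lower, where it called 2.89% of all genes tested higher and 0.872% lower. DESeq2 called 5 and 0, where it called 6.71% of all genes higher. The log2 fold change lay above 0 in 18 of the 30, with a median of 0.30, and in 49.7% of all genes. Besides Dio3, edgeR called Atp10a, a phospholipid flippase, and Ndn, which codes for necdin, a growth suppressor of the MAGE family. Atp10a was at 1.73, 2.01 and 2.90 CPM in the footpad against 0.328, 0.393 and 0.384 CPM in the flank skin (log2 fold change 2.58 ± 0.37, edgeR adjusted p = 0.0177). Ndn was at 2.29, 2.29 and 3.08 CPM in the footpad against 0.362, 0.599 and 0.272 CPM in the flank skin (log2 fold change 2.63 ± 0.41, edgeR adjusted p = 0.0224). Neither gene overlapped between the sites, and 17.5% of all genes tested were likewise higher in the footpad without overlap. Both genes lie in the Prader-Willi and Angelman region of chromosome 7. Atp10a lost its call without footpad replicate 1 (adjusted p = 0.0611 from edgeR), footpad replicate 3 (0.101) and flank replicate 3 (0.0774). Ndn lost it without those tumors (0.0807, 0.110 and 0.0813 from edgeR) and without flank replicate 1 (0.0549). With the replicate block the adjusted p from edgeR was 0.0814 for Atp10a and 0.0888 for Ndn. DESeq2 also called Peg12 and Slc38a4, which were named after their values were seen, with log2 fold changes of 2.25 and 2.36 and adjusted p values of 0.0959 and 0.0583 from edgeR.

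The most abundant imprinted genes of this group did not pass the test. Nap1l4, Copg2, Sgce, Gnas, H13 and Commd1, the 6 of the group with the highest mean FPKM, had log2 fold changes of -0.18, -0.38, -0.48, -0.26, 0.32 and -0.47, with adjusted p values from 0.196 to 0.409 from edgeR. Of the 51 genes, 9 had 3 reads or fewer in every tumor and 4 had none.

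**Figure D5:**
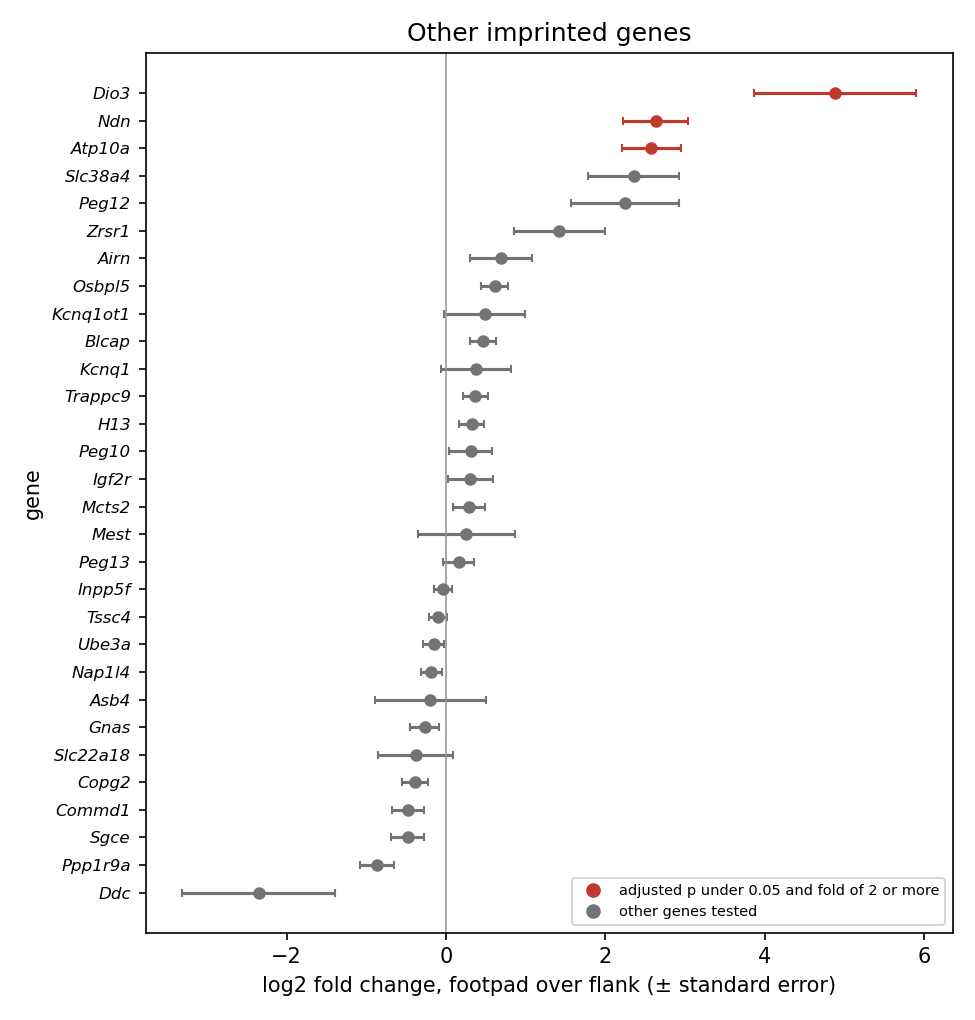
Log2 fold change, footpad over flank skin, of the 30 other imprinted genes tested, with bars of 1 standard error from edgeR. The 3 genes in red, Dio3, Ndn and Atp10a, passed both thresholds, and 12 of the 30 lie below 0.

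Partners of these genes in growth control were 22 genes, all tested. They included Igf1, the receptors for IGFs and insulin with their substrates, the proteins that bind Igf2 mRNA, and the p21 and p27 inhibitors. The list also held the Notch receptors and Dlk2, factors that set or maintain imprints, and Adcyap1r1. EdgeR called 1 of the 22 higher and 0 lower, where it called 2.89% of all genes tested higher and 0.872% lower. The gene called was Adcyap1r1, the PACAP receptor and a known target of Plagl1. A link between Plagl1 and Adcyap1r1 in these tumors was not tested, and the list was chosen with earlier results of these data known. The log2 fold change lay above 0 in 12 of the 22, with a median of 0.14, and in 49.7% of all genes. Adcyap1r1 was at 3.73, 2.25 and 2.001 CPM in the footpad against 0.552, 0.924 and 0.559 CPM in the flank skin (log2 fold change 1.97 ± 0.41, edgeR adjusted p = 0.0403). Its call was kept without footpad replicate 2 (0.04997) and lost in the other 5 fits without 1 tumor, with adjusted p values from 0.0541 without flank replicate 2 to 0.140 without flank replicate 3, and it was lost with the replicate block (0.123 from edgeR). Cdkn1b, which codes for p27, was at 80.4, 69.9 and 83.6 CPM in the footpad and 279, 114 and 120 CPM in the flank skin (log2 fold change -1.13, edgeR adjusted p = 0.0959, DESeq2 0.00803). Cdkn1a, which codes for p21, had a log2 fold change of 0.19. DESeq2 also called Igf2bp2 and Notch1 higher, which were named after their values were seen, with log2 fold changes of 1.90 and 1.37 and adjusted p values of 0.0665 and 0.0607 from edgeR. The imprint factors Ctcf, Dnmt1 and Trim28 had log2 fold changes of -0.48, -0.44 and -0.03, with adjusted p values from 0.120 to 0.9497 from edgeR.

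Genes with the most similar pattern over the 6 tumors were found by Pearson's r of log2 CPM, given here as a description. Grb10 was closest to Mcl1, Mtcl1 and Anxa3, and 387 of the genes tested had an r over 0.95 with it. Plagl1 was closest to Cmtm4, Gm8515 and Lrrc8a, with 417 genes over 0.95. For Rian the closest genes were Plac9b, St3gal1 and Slc39a1, for H19 they were Pate2, Gm34979 and Gas6, and for Peg3 they were Tnrc6a, Mga and Ankrd27, with 149, 98 and 47 genes over 0.95. The coefficients of these 15 genes lay between 0.990 and 0.997, over points that share 6 libraries.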

How the data were processed

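RNA of 3 footpad and 3 flank skin tumors was analysed, 1 library each, grouped by the sample labels. Per the submitters' processing notes, reads were checked with FastQC 0.11.7, trimmed with Trimmomatic and aligned to mm10 with HISAT2 2.1.0. The authors deposited unnormalized whole counts of reads for each gene, and FPKM, which the authors computed per transcript length and library. The counting tool, its use of strand and its treatment of overlapping genes are not given in the sources used here. Of 45777 listed genes, 45679 matched RefSeq on GRCm38.p6 by identifier.

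Counts were tested in R 4.3.3 with edgeR 4.0.16 (TMM, filterByExpr, glmQLFit and glmQLFTest, Benjamini-Hochberg adjustment, without a block for the replicate number), after the fits were tested on simulated data. Standard errors were derived from the F statistic. Calls needed an adjusted p below 0.05 and at least a 2-fold difference. Ratios of FPKM + 0.01, or of reads + 0.5 where stated, were compared with two-sided exact permutation tests. Intervals of pooled reads are exact at 95% and cover counting error only. Alternatives were DESeq2 1.42.0, limma 3.58.1 on log2(FPKM + 1) and log2(FPKM + 0.1), upper-quartile normalization, no filter, 10 counts in every tumor, a replicate block, other pseudocounts, and leaving out each tumor. Named beside the 10 genes were list members that edgeR called or that had the 6 highest mean FPKM values, genes over 3 reads within the 2 domains, the 3 closest genes by r, and defining markers, with exceptions named in the text. Genes and lists were chosen with earlier results of these data known.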

Additional observations from a re-analysis of the deposited data

How the results depend on the processing

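Direction held more often than calls did. The log2 fold changes of the 7 genes tested stayed above 0 under every alternative run. The number of all genes called, 647, was 1506 with DESeq2, 366 with limma on log2(FPKM + 1), and 0 to 836 in the fits without 1 tumor, where 0 stood for the fit without footpad replicate 3 (3289 genes at an unadjusted p under 0.05) and 836 for the fit without footpad replicate 2. Of the imprinted growth genes, 1 was called with limma on log2(FPKM + 1) in place of 2, and 0 to 2 without 1 tumor. Of the other imprinted genes, 5 were called with DESeq2 in place of 3, 0 with limma on log2(FPKM + 1) (10 at an unadjusted p under 0.05), and 0 to 3 without 1 tumor. Of the partners, 4 were called with DESeq2 in place of 1, 2 with at least 10 counts in every tumor, 0 with limma on log2(FPKM + 1) (7 at an unadjusted p under 0.05), and 0 to 3 without 1 tumor. With limma on log2(FPKM + 1), 3737 of all 17210 genes tested had an unadjusted p under 0.05. Without 1 tumor the difference in log2 ratio ranged from -0.43 to 2.07 for H19 to Igf2, from -2.15 to 0.00911 for Rian to Meg3, from -3.45 to 0.10 for Mirg to Meg3, and from -0.31 to 0.96 for Cdkn1c to Kcnq1ot1, so that the sign of these 4 ratios rested on single tumors. The causes were not tested.

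With the replicate number as a block, edgeR called 0 genes in all, 0 imprinted growth genes, 0 other imprinted genes and 0 partners, with 3551, 5, 8 and 8 at an unadjusted p under 0.05. The deviations of tumors with the same number correlated at 0.0544, -0.0965 and -0.115, and footpad replicate 2 correlated best with flank replicate 3 (0.264). Since these are deviations from site means of 3 tumors each, they cannot decide whether the numbers pair the tumors. Whether tumors with the same number share a mouse is not given in the sources used here.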
